A study of Homo sapiens with 12 samples.

Results

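The interferon response and RNA sensing genes are a set of 49 human genes that cells switch on, or use, when they meet interferon or foreign double-stranded RNA. They were chosen by symbol, in their role in this response, and each was represented by its brightest Illumina probe over all 12 arrays. A probe was found for 47 of the 49, out of 18665 genes with a probe that names 1 gene. STAT2 and HERC6 had no probe under their symbol in the annotation used here and were not analysed here, and DDX58 (RIG-I) was found under its current symbol RIGI. The cells were MDA-MB-231, an ER-negative breast cancer line, with no treatment other than siRNA and no second line beside it. By label, 3 arrays are controls and 3 hold RNA of cells with non-targeting siRNA. Another 3 are of cells with siRNA against cyclin D1 (CCND1) and 3 of cells with CDK4/6 siRNA. The controls are titled Control and were taken here as cells that received no siRNA, the name used below. Legends of the study place the siRNA samples 20 h after transfection. The sources used here do not say whether the cells without siRNA received the transfection reagent.

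Cytosolic double-stranded RNA is recognised by the helicases RIG-I and MDA5 (IFIH1) and by the kinase PKR (EIF2AK2), and endosomal double-stranded RNA by TLR3. The signals of RIG-I, MDA5 and TLR3 run through IRF3 and IRF7 to type I interferon. That interferon acts back on the cell through ISGF3, a complex that contains STAT2 and IRF9 and binds the interferon-stimulated response element of its target genes. An siRNA is itself a short double-stranded RNA, so a transfection can in principle engage the same sensors, and this is the question asked of the arrays here.

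The promoter windows of these genes were searched for the core of the element that ISGF3 binds. RefSeq windows (GRCh38.p14) of 250 bases before to 50 after the start of transcription were at hand for 37 of the 49 genes. A pair of GAAA repeats set 2 bases apart, the core of the element, was searched on both strands with overlaps allowed and was in a window of 26 of the 37 (70.3%), against 4.38% of all 27305 genes with a window. The sequence TTCNNNGAA, the core of the gamma-activated site, was in 13 of the 37 (35.1%), against 9.38% of all genes. A match here is a run of letters, not a binding site. Stretches of 80 bases upstream of the start are shown for IFIT1, IFIT3 and ISG15, which were among the genes that varied most between arrays, and for IRF1, with the matches in capitals (the GAAA pair on either strand for the first 3 genes and TTCNNNGAA for IRF1).
IFIT1 (chr10:89392478-89392557, plus strand): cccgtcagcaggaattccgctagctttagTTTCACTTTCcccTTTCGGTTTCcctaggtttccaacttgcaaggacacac
IFIT3 (chr10:89327823-89327902, plus strand): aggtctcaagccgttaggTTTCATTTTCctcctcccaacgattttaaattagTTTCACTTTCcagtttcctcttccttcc
ISG15 (chr1:1013352-1013431, plus strand): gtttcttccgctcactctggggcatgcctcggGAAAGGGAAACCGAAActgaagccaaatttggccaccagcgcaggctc
IRF1 (chr5:132490854-132490933, minus strand): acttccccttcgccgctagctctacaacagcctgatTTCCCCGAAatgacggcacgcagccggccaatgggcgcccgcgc
IFIT1, IFIT3 and ISG15 each hold 2 matches in the stretch shown, which overlap in ISG15, and IRF1 holds 1.

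The labels of the arrays do not follow the genes that the siRNAs were aimed at. For CDK4, the array labelled no siRNA 3 read 301, non-targeting siRNA 2 read 275 and CDK4/6 siRNA 2 read 409, while the other 9 read 2167 to 2771. These 3 arrays read 276 to 333.5 for CDK6, and the rest 1297 to 1752. CCND1 ranged from 2702.5 to 15393, and each of the 4 labels held both an array at 13659 or above and one at 5100 or below. Each group is therefore named by its label, with no siRNA standing for the title Control. The comparisons below are between labels and not between known treatments. The deposited values are linear intensities without background subtraction, nearly equal in distribution on all 12 arrays, and the background level was taken as 44.4 from the low values themselves. Genes that mark the line were bright, with VIM at 15294.5 or above, CD44 at 10317 or above and CAV1 at 5618 or above, while SPARC was above background on 0 arrays. Of the luminal breast genes looked at, KRT19 (3132.7 or above), KRT8 (933 or above) and GATA3 (80.2 or above) were above background on all 12 arrays, CDH1 on 8 and ESR1 on 2. The leukocyte gene PTPRC was above background on 0 arrays and CD3E on 1, but CD14, CD68 and HLA-DRA were above it on all 12, LYZ on 11 and IRF8 on 5.

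Most of these genes were above background in MDA-MB-231 cells, read over arrays of all 4 labels. Of the 47 genes with a probe, 40 were above background on all 12 arrays, 3 on some (OAS1 on 10, BST2 on 11 and RSAD2 on 4) and 4 on none (DDX58, IFITM1, IFI27 and IFI44L). The 43 genes above background on at least 3 arrays were tested, and RSAD2 passed this filter on few arrays. Of all 18665 genes with a probe, 13546 passed the same filter. Probes bind with different strength, so the brightness of one gene is not set against that of another.

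**Figure D1:**
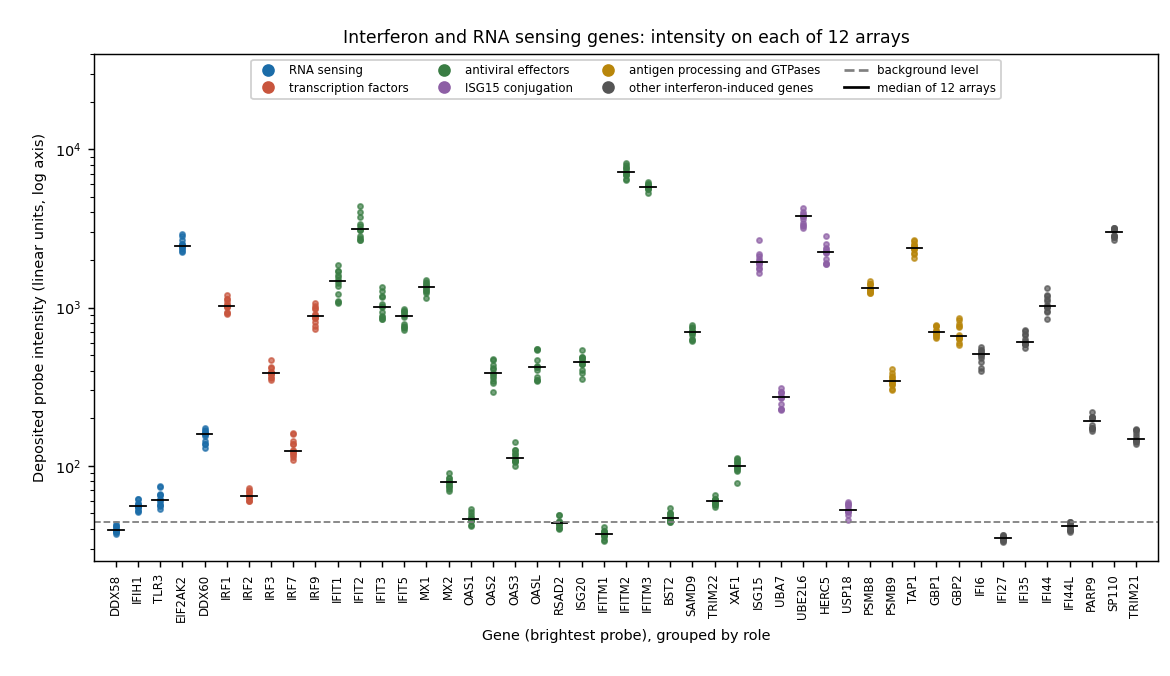
Deposited probe intensity (linear units on a log axis) of the 47 genes with a probe, 12 points per gene for the 12 arrays, coloured by role, with a bar at the median and a dashed line at the background level of 44.4. IFITM2 lies between 6420 and 8148, and DDX58, IFITM1, IFI27 and IFI44L lie below the line on every array.

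The probes of the RNA sensors differed in whether they rose above background. DDX58, the gene of RIG-I, lay at 41.6, 38.9 and 42.9 on the 3 arrays labelled no siRNA (in the order of their replicate numbers, as throughout), at 38, 38.8 and 39.3 with non-targeting siRNA, at 40.9, 39.6 and 37.1 with cyclin D1 siRNA and at 38.4, 38.6 and 41.5 with CDK4/6 siRNA. All 12 values, from the only probe of DDX58, were below background, so an absent transcript and a weak probe cannot be told apart. IFIH1, the gene of MDA5, was a little above background at 50.8, 61.5 and 61.4 without siRNA, at 52.3, 56.2 and 55.3 with non-targeting siRNA, at 54.6, 51.6 and 54.6 with cyclin D1 siRNA and at 55.4, 57.4 and 58.1 with CDK4/6 siRNA. Its extremes were both among the arrays labelled no siRNA, so the groups overlapped. EIF2AK2, the gene of the translation-inhibiting kinase PKR, was at 2896, 2528 and 2346 without siRNA, at 2466, 2531.5 and 2445 with non-targeting siRNA, at 2463, 2681 and 2264 with cyclin D1 siRNA and at 2834, 2383 and 2239 with CDK4/6 siRNA. The highest EIF2AK2 array was again one labelled without siRNA. TLR3, the endosomal sensor, was between 53.2 and 74.7, and DDX60, a helicase gene linked to RIG-I signalling, between 130.1 and 174.4.

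Among the transcription factors of the response, all 5 with a probe were above background on every array. IRF1, an interferon gamma-induced activator, was at 1003, 927.5 and 1005 without siRNA, at 944, 910 and 1126 with non-targeting siRNA, at 1032, 1035 and 1131 with cyclin D1 siRNA and at 1082, 1016 and 1205.5 with CDK4/6 siRNA. Its 3 highest arrays were CDK4/6 siRNA 3, cyclin D1 siRNA 3 and non-targeting siRNA 3. IRF9, the DNA-binding subunit of ISGF3, was at 766.5, 858 and 991 without siRNA, at 917, 874 and 857 with non-targeting siRNA, at 728, 895 and 1067 with cyclin D1 siRNA and at 812, 1026 and 983 with CDK4/6 siRNA. Its lowest and highest arrays carried the same label, cyclin D1 siRNA. IRF3, which sensors activate without new synthesis, lay between 351 and 468, IRF7, which interferon induces, between 109 and 161.9, and the repressor gene IRF2 between 59.6 and 72.8.

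The IFIT genes, whose proteins bind foreign RNA and block its translation, held the 3 widest ranges of the antiviral effectors. IFIT1 was at 1373, 1224 and 1852 without siRNA, at 1429, 1076 and 1697.5 with non-targeting siRNA, at 1103, 1554 and 1504 with cyclin D1 siRNA and at 1707, 1599.6 and 1079.8 with CDK4/6 siRNA. Every label had an array at 1224 or lower and one at 1554 or higher, and the highest array was no siRNA 3. IFIT2 was at 2743, 2840.1 and 4416 without siRNA, at 3297, 2684 and 3998 with non-targeting siRNA, at 2684, 3382 and 3099 with cyclin D1 siRNA and at 3725, 3149 and 3071 with CDK4/6 siRNA. IFIT3 was at 873, 885 and 1354 without siRNA, at 1053, 853 and 1272 with non-targeting siRNA, at 846, 942 and 1186.5 with cyclin D1 siRNA and at 1166, 1019.5 and 1011 with CDK4/6 siRNA. Both genes were highest on no siRNA 3 and next on non-targeting siRNA 3, and the related gene IFIT5 was between 724 and 974.5.

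The OAS enzymes make the oligoadenylates that switch on RNase L. OAS1 was at 41.9, 44.6 and 53.2 without siRNA, at 42, 49.2 and 46.4 with non-targeting siRNA, at 45.4, 47 and 45.7 with cyclin D1 siRNA and at 46.8, 45.6 and 51.3 with CDK4/6 siRNA. These values straddle the background level, and the arrays labelled no siRNA held both the lowest and the highest. OAS2 was at 346, 467 and 407 without siRNA, at 472, 357 and 368 with non-targeting siRNA, at 294.5, 413 and 388.5 with cyclin D1 siRNA and at 334, 433 and 379.6 with CDK4/6 siRNA. The highest OAS2 arrays were non-targeting siRNA 1 and no siRNA 2, and OAS3 was between 99.8 and 141.1. OASL, a related gene without the enzyme activity, is given in full after its values were seen: 349, 425 and 551 without siRNA, 351, 345.5 and 536 with non-targeting siRNA, 364, 467 and 423 with cyclin D1 siRNA and 549, 406 and 423 with CDK4/6 siRNA. OASL stood at 536 to 551 on 1 array each of the labels no siRNA, non-targeting siRNA and CDK4/6 siRNA, and at 467 or below on the other 9.

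MX1, a GTPase that traps viral nucleocapsids, was at 1336, 1307 and 1425 without siRNA, at 1492, 1266 and 1345 with non-targeting siRNA, at 1142, 1265 and 1450.2 with cyclin D1 siRNA and at 1234, 1395 and 1383 with CDK4/6 siRNA. The groups overlapped throughout, and its relative MX2 was between 69.7 and 90.4. IFITM1, a membrane protein gene that restricts virus entry, was at 38.8, 38.3 and 37.7 without siRNA, at 37.3, 33.7 and 38.5 with non-targeting siRNA, at 36.7, 36.4 and 36.6 with cyclin D1 siRNA and at 41.3, 34.1 and 35.5 with CDK4/6 siRNA, below background on all 12. Its family members IFITM2, at 6420 to 8148, and IFITM3, at 5264 to 6174, were above background on all 12 arrays. The exonuclease gene ISG20 was at 353 to 542, SAMD9 at 614 to 777 and the proapoptotic gene XAF1 at 78 to 112. TRIM22 (54.6 to 65.4), BST2, the gene of tetherin (44 to 53.8), and RSAD2, the gene of viperin (40 to 49), lay near background.

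ISG15 is a ubiquitin-like protein that UBA7, UBE2L6 and HERC5 attach to targets and USP18 removes. ISG15 was at 1863, 1923 and 2104 without siRNA, at 1911, 1971 and 1954 with non-targeting siRNA, at 1781, 1758 and 2041 with cyclin D1 siRNA and at 2681, 1647 and 2186.5 with CDK4/6 siRNA. The array labelled CDK4/6 siRNA 1 stood above the other 11, and CDK4/6 siRNA 2 below them. UBE2L6 was between 3202 and 4249, HERC5 between 1889.8 and 2819.7, UBA7 between 226 and 310 and USP18 between 45.3 and 58.7.

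The genes of antigen processing and the interferon-induced GTPases were all above background on every array. PSMB9, an immunoproteasome subunit, was at 344, 410.3 and 306 without siRNA, at 368.5, 322 and 342 with non-targeting siRNA, at 301, 355 and 385 with cyclin D1 siRNA and at 328, 363 and 331 with CDK4/6 siRNA. It was lowest on cyclin D1 siRNA 1 and highest on no siRNA 2. PSMB8, its partner subunit, was between 1233 and 1476 and TAP1, a peptide transporter subunit, between 2067 and 2693. The guanylate-binding protein genes GBP1 and GBP2 were between 639 and 773 and between 582 and 854.

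Of the 8 remaining interferon-induced genes, 6 were above background on all arrays. IFI44 was at 1014, 1044 and 1199.9 without siRNA, at 935, 957 and 1179.9 with non-targeting siRNA, at 1014, 1134 and 1004 with cyclin D1 siRNA and at 1329, 1098 and 843 with CDK4/6 siRNA, so that the label CDK4/6 siRNA held its highest and its lowest array. IFI6, the gene of a small membrane protein that protects infected cells from apoptosis, was at 524.5, 454 and 539 without siRNA, at 539.5, 481 and 508 with non-targeting siRNA, at 400.1, 508.5 and 561 with cyclin D1 siRNA and at 414, 507 and 498 with CDK4/6 siRNA. Its values were lowest on cyclin D1 siRNA 1 and CDK4/6 siRNA 1, and it overlapped between all labels. IFI27, one of the most strongly interferon-induced genes in many cells, was at 33.1, 35.5 and 34.4 without siRNA, at 36.8, 34.1 and 35.6 with non-targeting siRNA, at 36.4, 35.5 and 34.8 with cyclin D1 siRNA and at 33.7, 34.4 and 35.5 with CDK4/6 siRNA. It was below background on every array, as was IFI44L, which did not exceed 44.3. IFI35 was between 556 and 718, PARP9 between 165.7 and 220.4, SP110 between 2662 and 3207 and TRIM21, an E3 ligase and antibody receptor, between 137.9 and 171.3.

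**Figure D2:**
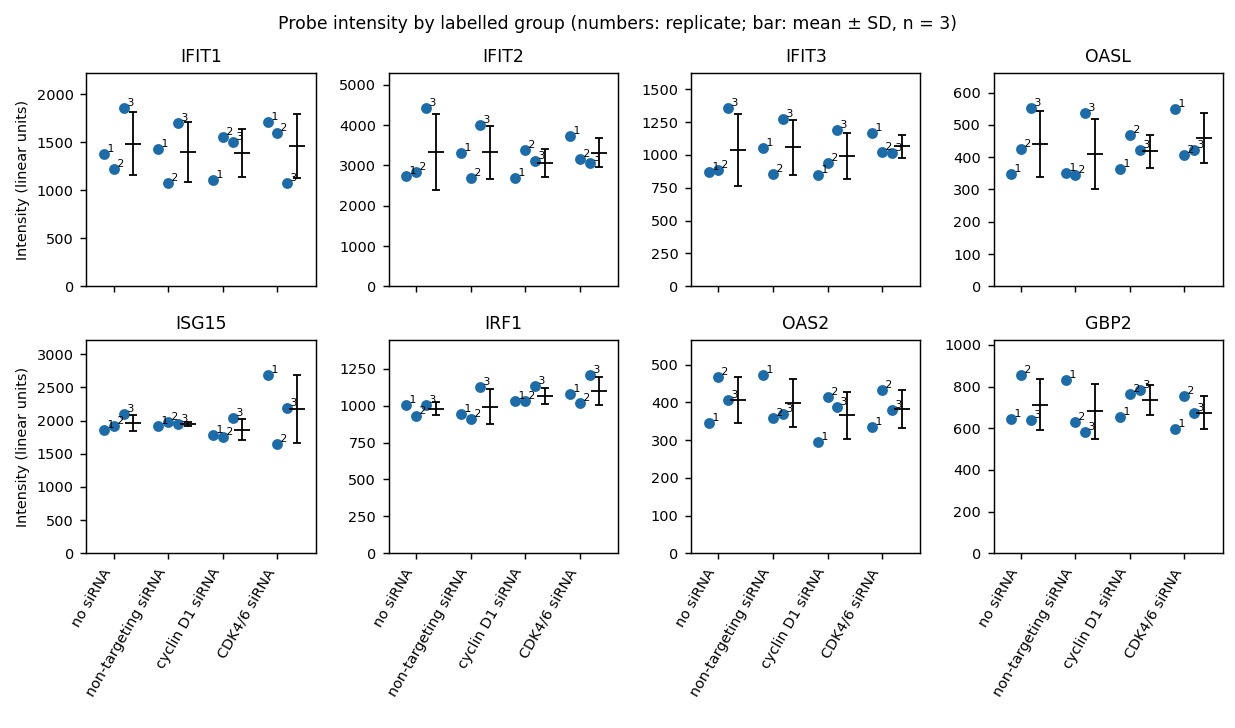
Probe intensity (linear units from 0) of 8 genes by labelled group, with a point for each array numbered by replicate and a bar for the mean ± SD (n = 3). IFIT1, IFIT2, IFIT3 and OASL overlap between all 4 labels, and ISG15 is highest, at 2681, on CDK4/6 siRNA 1.

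To ask whether siRNA of any kind went with an interferon response, the 9 arrays labelled with an siRNA were compared with the 3 labelled without one. No gene of the set passed the test: 0 of 43 were called at an adjusted p under 0.05 from limma, and 0 of 13546 genes were called in all (0%). Since the labels go against the targeted genes, a wrong label and a lack of response cannot be told apart here. At an unadjusted p under 0.05, 0 of 43 differed, against 1.13% of all genes. The arrays of 0 genes of the set lay apart without overlap, against 0.0738% of all genes for higher and 0.207% for lower with siRNA. The median log2 fold change over the 43 genes was -0.024, against -0.00069 over all genes tested, with 16 values above 0 and 27 below. The values ran from -0.10 for IFITM2 to 0.10 for IRF1, with a median standard error of 0.078. For IFIT1 the estimate was -0.066 (SE 0.18), with a mean intensity of 1417 ± 263 (SD, n = 9) against 1483 ± 328 (SD, n = 3). ISG15 gave 0.0096 (SE 0.11) and IRF1 gave 0.10 (SE 0.070), and the adjusted p from limma was 1 for all 3. The smallest p of the set was that of BST2, which was lower with siRNA by label at -0.088 on the log2 scale (SE 0.042) with an adjusted p of 1 from limma.

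The other comparisons by label gave the same count. Between non-targeting siRNA and no siRNA, 0 of 43 genes were called (0% of all genes), and the median log2 fold change was -0.025, from -0.11 for OASL to 0.065 for IFITM3. TRIM22 was the only gene of the set whose arrays did not overlap in this comparison, at 60.5 to 62.1 against 54.6 to 60.3, where 2.94% of all genes lay apart in that direction and 3.64% in the other. At an unadjusted p under 0.05, 0 of 43 differed there, against 1.79% of all genes. When the arrays labelled cyclin D1 siRNA were set against the non-targeting ones, 0 of 43 were called (0% of all genes) with a median of 0.0050, from -0.18 for ISG20 to 0.13 for TRIM21. In that comparison 0 of 43 had an unadjusted p under 0.05, against 3.03% of all genes, and 0 lay apart without overlap, against 4.17% higher and 3.45% lower. For the CDK4/6 label against the non-targeting one, 0 of 43 were called (0% of all genes) with a median of 0.0086, from -0.11 for IFI6 to 0.17 for OASL. MX2 was higher without overlap there, at 79.4 to 83.8 against 74.5 to 78.4, where 3.61% of all genes lay apart in that direction and 2.49% in the other, and 0 of 43 had an unadjusted p under 0.05, against 1.81% of all genes. These last 3 comparisons share the non-targeting arrays. In a test of any difference among the 4 labels, 0 of 43 genes were called, and 0 had an unadjusted p under 0.05, against 1.06% of all genes. The SD within labels had a median of 0.13 over the 43 genes and the SD over all 12 arrays one of 0.12 (log2), so arrays of 1 label were no closer to each other than arrays in general.

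**Figure D3:**
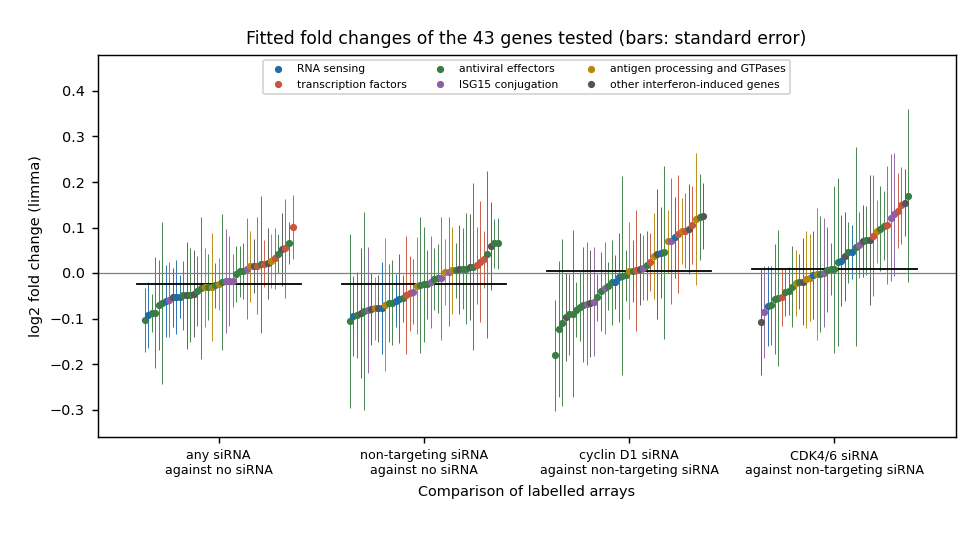
Log2 fold change from limma (points) with its standard error (bars) for the 43 genes tested in 4 comparisons of labelled arrays, coloured by role, with a black line at the median. The medians lie between -0.025 and 0.0086, and no gene passed the test.

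By role, the medians with any siRNA against none lay between -0.057 and 0.032. With any siRNA against none, the 4 RNA sensing genes tested had a median log2 fold change of -0.057, the 5 transcription factor genes one of 0.032, the 18 antiviral effectors one of -0.032, the 5 genes of ISG15 conjugation one of -0.017, the 5 antigen processing and GTPase genes one of -0.024 and the 6 others one of -0.015. The sensing genes ran from -0.093 to -0.052 and the transcription factor genes from 0.016 to 0.10. In the other comparisons the median furthest from 0 was 0.11, for the transcription factor genes with CDK4/6 siRNA against non-targeting siRNA. In each of these groups 0 genes were called in any comparison.

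Since the labels go against CCND1 and CDK4, the genes were also followed array by array, without labels. On each array, every gene was set against its own median over the 12 arrays. The median of these log2 deviations over the 43 genes lay between -0.087 and 0.073, and the same median over all genes tested between -0.0058 and 0.0080. The highest was on no siRNA 3, where 30 of the 43 genes were above their own median (CCND1 14977, CDK4 301). The next were no siRNA 2, at 0.036 with 28 genes above (CCND1 2702.5, CDK4 2361), and non-targeting siRNA 1, at 0.029 with 27 above (CCND1 2951, CDK4 2289). The lowest was on cyclin D1 siRNA 1, with 8 genes above (CCND1 13878, CDK4 2771), followed by non-targeting siRNA 2, at -0.075 with 11 above (CCND1 14187, CDK4 275), and no siRNA 1, at -0.057 with 11 above (CCND1 13659, CDK4 2608.5). Next lowest was CDK4/6 siRNA 1, at -0.025 with 17 above (CCND1 13952, CDK4 2561). The 3 arrays with CCND1 over 10000 and CDK4 over 500 (cyclin D1 siRNA 1, no siRNA 1 and CDK4/6 siRNA 1) were thus all below 0. Of the other arrays only non-targeting siRNA 2 was below 0. These arrays were singled out by values, and the pattern was not tested. The arrays no siRNA 3 and non-targeting siRNA 2, both low in CDK4 and CDK6, stood near opposite ends. No array had the set as a whole raised by as much as 0.1 on the log2 scale above these medians. The medians come from the same 12 arrays, so a response shared by most of them could not show as a raised array.

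**Figure D4:**
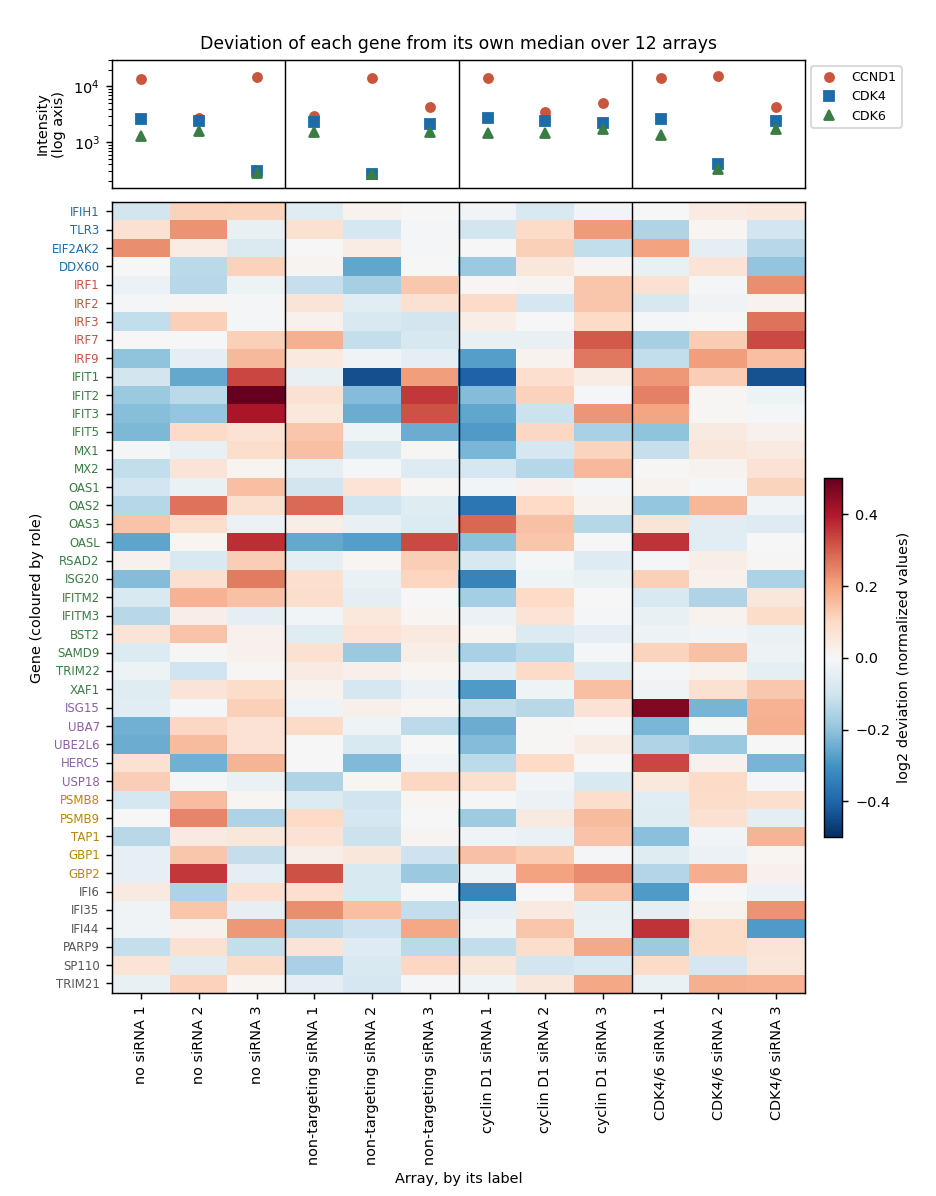
Log2 deviation of each of the 43 genes tested (rows, coloured by role) from its own median over the 12 arrays (columns, by label), red above and blue below, with the intensities of CCND1, CDK4 and CDK6 on a log axis above. IFIT2 is 0.50 above its median on no siRNA 3 and ISG15 0.46 above its own on CDK4/6 siRNA 1, while no column is red throughout.

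Some genes had their high arrays in common. The 3 highest arrays of IFIT1, IFIT2, OASL, ISG20, IFI44 and SP110 were the same: no siRNA 3, CDK4/6 siRNA 1 and non-targeting siRNA 3. These are 6 of the 43 genes, against 0.62% of all genes tested, for a triple picked after its values were seen, so the count is a description. These 3 arrays carry 3 labels and 3 states of the targeted genes, with CCND1 at 14977, 13952 and 4311 and CDK4 at 301, 2561 and 2167. Of the 5 dimmer probes that IFIT1, OASL and SP110 have, 1 (OASL) had the same 3 highest arrays. The dimmer IFIT1 probe was highest on CDK4/6 siRNA 2, at 82.5, and the 3 dimmer SP110 probes each had another top 3. IRF9, OAS2 and UBA7 shared their 3 lowest arrays, CDK4/6 siRNA 1, cyclin D1 siRNA 1 and no siRNA 1, where CCND1 was at 13659 to 13952 and CDK4 at 2561 to 2771 (2.73% of all genes tested were lowest on these 3). IRF9 was at 728 to 812 there and at 857 or above elsewhere, OAS2 at 294.5 to 346 there and at 357 or above elsewhere, and UBA7 at 226 to 229.6 there and at 247 or above elsewhere. A second OAS2 probe (ILMN_2248970) did not follow. It was at 301.8 on no siRNA 1, 346.1 on cyclin D1 siRNA 1 and 355.4 on CDK4/6 siRNA 1, but at 325.6 on CDK4/6 siRNA 2 and 340.2 on no siRNA 3. IRF9 and UBA7 have 1 probe each.

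The same positions can be read for each triple of arrays alike in CCND1 and CDK4. Arrays were singled out here by values, so nothing was averaged or tested and no treatment is attached to them. On the 3 arrays with CDK4 under 500, 0 of 43 genes lay above all the other 9 arrays (0.325% of all genes tested did) and 0 below (1.19%). On the 3 with CCND1 over 10000 and CDK4 over 500, 0 lay above (4.36%) and 3 below (2.73%), namely IRF9, OAS2 and UBA7. On the 3 with CCND1 between 4311 and 5100, IRF1 lay above, at 1126 to 1205.5 against 910 to 1082 (1.22%), and OAS3 below, at 99.8 to 106.5 against 107.3 to 141.1 (3.14%). A second OAS3 probe (ILMN_2184262), near background, did not follow. It was at 44.4 on non-targeting siRNA 3, 41.3 on cyclin D1 siRNA 3 and 52.2, its joint highest, on CDK4/6 siRNA 3. On the 3 with CCND1 between 2702.5 and 3513, IFIT5 lay above, at 946 to 974.5 against 724 to 931 (1.11%), and 0 lay below (1.85%). CCND1 values of 3513 and 4311 lie on either side of the line drawn between the last 2 sets. None of these 4 triples had more than 1 of the 43 genes above the other arrays, and the most below was 3. A rise shared by several triples would put none of them above all the other arrays. These counts therefore cannot show that such a rise was absent. The triple with IRF9, OAS2 and UBA7 low consists of replicate 1 of 3 labels, and that with IRF1 high and OAS3 low of replicate 3 of 3 labels. The remaining array of each number lay in another triple. Non-targeting siRNA 1 had IRF9 at 917, OAS2 at 472 and UBA7 at 292.3, and no siRNA 3 had IRF1 at 1005 and OAS3 at 109.6. In the order in which the samples are listed, each of the 4 triples is a run of 3 samples in succession. Level and listing order therefore cannot be told apart.

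The 43 genes had a slightly wider log2 range between arrays than genes in general, in a comparison not matched for intensity. The log2 range over the 12 arrays had a median of 0.38 for them and 0.32 for all genes tested. A range over 0.5 was seen in 11 of the 43 (25.6%), against 16.5% of all genes, and a range over 1 in 0. IFIT1 had the widest, 1.72-fold from the lowest to the highest intensity.

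The dimmer probes of a gene did not always follow its brightest one. IFIT3 had a range of 0.67 by its brightest probe (ILMN_1701789) but of 1.60 by the next (ILMN_2239754). That probe was at 395, 325 and 437 without siRNA, at 422.5, 267 and 483 with non-targeting siRNA, at 270.5, 391 and 656 with cyclin D1 siRNA and at 386, 619 and 204 with CDK4/6 siRNA. It was highest on cyclin D1 siRNA 3 and CDK4/6 siRNA 2 and lowest on CDK4/6 siRNA 3, where the brightest probe was at 1186.5, 1019.5 and 1011. The third IFIT3 probe, ILMN_1664543, was also highest on the first pair, at 184.5 and 180.3, and lowest on CDK4/6 siRNA 3, at 71.1. What separates the probes was not tested.

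Of 21 interferon genes with a probe, 11 were above background on 0 arrays, among them IFNB1 at 31.5 to 42.2, and 3 on all 12, namely IFNA8, IFNA10 and IFNA17, of which IFNA17 was at 167.3 to 267.8. The interferon alpha genes are near-identical copies, so a probe may not tell them apart. Among 12 genes of receptors, kinases and feedback, 11 were above background on all arrays, such as the receptor genes IFNAR1, at 325 to 422, and IFNGR2, at 2016 to 2553, and the kinase gene TYK2, at 1985 to 2561. JAK2, another receptor kinase, was above background on 0. Of 17 sensing adaptor and kinase genes with a probe, DDX58 among them, 12 were above background on all arrays, including MAVS, the mitochondrial adaptor of RIG-I and MDA5, at 104.8 to 136.8, TBK1, the kinase of IRF3, at 607 to 733, and ADAR, the RNA-editing enzyme, at 2106 to 2547. The interferon-induced chemokine CXCL10 was at 59.4 to 88. In none of these 4 lists was a gene called in any of the 4 comparisons, with 8, 11, 12 and 2 genes tested and median log2 fold changes of 0.028, -0.015, -0.00051 and -0.044 for any siRNA against none.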

How the data were processed

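The authors deposited linear probe intensities of 12 Illumina BeadChip arrays (48803 probes, range 28 to 20972, median 44.1), without background subtraction. Sorted values agreed between arrays within 0.5% at 99.97% of ranks, as after a normalization between arrays, whose software the sources used here do not name. A second table was left out, since its 24 per-sample columns match no label. After normexp with an offset of 50 and quantile normalization, intensities were used as log2 values in limma 3.58.1 (R 4.3.3). Background was centred on the most frequent intensity (39.5), its SD (2.95) came from dimmer values, and its one-sided 0.05 limit was 44.4. The 27021 probes (55.4%) over this limit on at least 3 arrays entered 1 fit with a mean per labelled group (lmFit and eBayes, two-sided), with p-values adjusted over these probes by Benjamini-Hochberg and a threshold of 0.05. A gene was read from its brightest probe that names 1 gene, which left 13546 genes.

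Legends of the study that cover the array panels among others speak of independent experiments, and the array labels give only replicate numbers, so p-values measure the spread between these arrays, part of which may be technical, and their number limits the precision. Any pair of arrays had identical values at no more than 0.692% of probes tested. The genes, lists and tests were chosen with earlier results of these data known. Values on every array are given for a panel of 15 genes and for the 6 with the widest range, and OASL, TRIM22, MX2 and the genes apart on 3 arrays were picked after seeing values. The fit was tested on simulated data. Results were recomputed under other background corrections, normalizations and filters, with a replicate block, array weights, all probes of a gene, fewer groups, the methods' t-test, and without each replicate. A block for slide could not be run without the slide of each array.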

Additional observations from a re-analysis of the deposited data

How the results depend on the processing

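Under every alternative run, 0 genes were called in each of the 4 comparisons, in the interferon set and over all genes, whether by limma or by the adjusted t-test of the methods, and leaving out replicates gave 0 to 0. Each label mixes arrays of high and low CCND1, so a count of 0 by label cannot show a lack of response under any setting. The interferon set's median log2 fold change for any siRNA against none lay at -0.032 to -0.016, and leaving out replicates one by one gave -0.045 to 0.015. The set's median deviation on single arrays had a pooled SD within labels of 0.054. That SD describes single arrays of mixed CCND1 and CDK4 level and is not the error of a difference between groups. A fit with the replicate block called 0 of 43 and 0 of all genes in each comparison, with the same median of -0.024. Same-numbered arrays had correlated deviations of -0.23 to 0.47, above 0.1 in 9 of 18 pairs, with a median of 0.11 against -0.045 for other pairs. The numbers were not used as pairs, since not every pair was above 0.1. Many same-numbered arrays are also alike in CCND1 and CDK4, so these correlations cannot separate pairing from level. Before adjustment, 442, 269, 325 and 264 genes had a t-test p under 0.05 in the 4 comparisons, in place of 153, 243, 411 and 245 by limma. Signs of single genes, none past the threshold in any setting, were not stable, for a cause that was not tested.

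Leaving out replicates one by one, single genes with any siRNA against none ranged (log2) from -0.19 to 0.10 for IFIT1, -0.14 to 0.20 for IFIT2, -0.088 to 0.22 for IFIT3, -0.045 to 0.071 for ISG15, -0.060 to 0.0051 for MX1, -0.048 to 0.075 for OAS1, -0.13 to 0.022 for EIF2AK2, -0.12 to 0.00087 for IFI6, -0.033 to 0.15 for IRF9 and -0.12 to 0.076 for PSMB9. With non-targeting siRNA set against no siRNA they ranged from -0.23 to 0.092 for IFIT1, -0.13 to 0.23 for IFIT2, -0.10 to 0.25 for IFIT3, -0.048 to 0.039 for ISG15, -0.054 to 0.063 for MX1, -0.065 to 0.058 for OAS1, -0.12 to 0.026 for EIF2AK2, -0.061 to 0.059 for IFI6, -0.075 to 0.076 for IRF1, -0.062 to 0.12 for IRF9 and -0.12 to 0.079 for PSMB9. With cyclin D1 siRNA set against non-targeting siRNA they ranged from -0.18 to 0.15 for IFIT1, -0.25 to 0.032 for IFIT2, -0.23 to 0.050 for IFIT3, -0.038 to 0.042 for OAS1, -0.042 to 0.00037 for IFIH1, -0.070 to 0.051 for EIF2AK2, -0.17 to 0.067 for IFI6, -0.13 to 0.14 for IRF9 and -0.070 to 0.10 for PSMB9. With CDK4/6 siRNA set against non-targeting siRNA they ranged from -0.12 to 0.26 for IFIT1, -0.14 to 0.15 for IFIT2, -0.12 to 0.16 for IFIT3, -0.035 to 0.31 for ISG15, -0.084 to 0.033 for MX1, -0.10 to 0.067 for EIF2AK2 and -0.058 to 0.034 for PSMB9. Cyclic loess turned PSMB9 to -0.0022 (cyclin D1 siRNA against non-targeting siRNA). Array weights turned IFIT2 to -0.027, MX1 to -0.011, IFI6 to -0.0025 (non-targeting siRNA against no siRNA), IFIT1 to 0.048, OAS1 to -0.0053, EIF2AK2 to 0.0027 (cyclin D1 siRNA against non-targeting siRNA), EIF2AK2 to 0.024 (CDK4/6 siRNA against non-targeting siRNA). Mean over all tested probes of a gene turned IFIT3 to -0.011, OAS1 to -0.057 (any siRNA against no siRNA), IFIT3 to -0.039, IFI6 to -0.020 (non-targeting siRNA against no siRNA), IFIT3 to 0.069, OAS1 to -0.018, IFI6 to 0.025 (cyclin D1 siRNA against non-targeting siRNA), OAS1 to -0.021, PSMB9 to 0.027 (CDK4/6 siRNA against non-targeting siRNA).

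OAS1 had no value where all 12 arrays had to exceed background, and the fit on compared groups alone is not separate for any siRNA against none. DDX58, IFITM1, IFI27 and IFI44L below background, and OAS1, RSAD2 and BST2 near it, can show little under any setting.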

Other observations

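Dimmer probes of other genes in the set also stood apart on a few arrays. UBE2L6, the ISG15-conjugating enzyme, was at 319 on cyclin D1 siRNA 3 and 279.9 on CDK4/6 siRNA 2 by its second probe (ILMN_1703108) and lowest, at 175.3, on CDK4/6 siRNA 3, while its brightest probe was at 3904, 3346 and 3806.5 on these arrays. PSMB8 by its probe ILMN_1767006 was highest on cyclin D1 siRNA 3, at 397, and lowest on CDK4/6 siRNA 3, at 295.7, while ILMN_1747195 was at 437 and 559.8 on the same pair. The adaptor gene of TLR3, TICAM1, had a log2 fold change of -0.17 for any siRNA against none by label, which did not pass the test.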
